A study of Mus musculus with 8 samples.

Results

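The myeloid C-type lectin receptors described here are 8 genes, Clec4e, Clec4d, Clec4n, Clec7a, Clec5a, Clec12a, Clec4a2 and Clec4a3, chosen as known receptors of innate immune cells and found on the arrays by an exact match of the gene name. Each had 1 probe, printed once per array, so the 8 receptors are 8 of 55681 gene probes and 8 of 34821 gene names. Expression was measured on 8 one-colour Agilent arrays of amplified mouse cDNA: 4 of resident microglia, sorted as GFP+, and 4 of invading macrophages, sorted as RFP+. All cells came from the ischemic brains of C57BL/6 bone marrow chimeras, animals in which grafted marrow supplies the blood cells, after a focal ischemia of 30 minutes (MCAo, an occlusion of the middle cerebral artery) and 7 days of reperfusion. Animals A, B, C and D gave 1 sample of each kind, numbered replicates 1, 2, 3 and 4. Both groups were ischemic, and the labels name neither the promoter of either reporter nor the number of cells sorted. The comparison asks how the receptors' RNA in cells that invaded from the blood differed from that in the resident microglia of the same brains.

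C-type lectin receptors of myeloid cells sense sugars and lipids of microbes and products of dying cells. Activating members signal through the adaptor chains Fcer1g or Tyrobp, or through a motif in their own tail, to the kinase Syk and from there to Card9 and NF-kB. Inhibitory members carry a motif in their tail that recruits the phosphatases Ptpn6 and Ptpn11. Most of the genes lie in clusters on mouse chromosome 6, beside lectin receptors of natural killer cells.

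All 8 probes lie on chromosome 6 (build mm9, coordinates from the array files). The first 30 of each probe's 60 bases are shown in lower case, because every value below rests on a single such sequence per receptor. Whether a probe falls in a coding exon or in a UTR was not analysed here.
Clec4e (chr6:123232878-123232937, minus strand): actggatttcacctgtacttgtatctactg
Clec4d (chr6:123224788-123224847, plus strand): aggatttgtaaattacctggaataacattc
Clec4n (chr6:123196969-123197028, plus strand): gtcttgccctggtttctttctatgaactgc
Clec7a (chr6:129411739-129411798, minus strand): ttaataccacccttatttccagtgtggact
Clec5a (chr6:40525116-40525175, minus strand): aggaaaggatatggttatatcaacacatct
Clec12a (chr6:129314880-129314939, plus strand): ccctgtcgtaataaagcttaataaactagg
Clec4a2 (chr6:123093890-123093949, plus strand): ctctttaggaaaggaaagcaaggatagtat
Clec4a3 (chr6:122919637-122919696, plus strand): gccaatggttatacatatgataatactggc
The longest run of bases shared by any pair of the 8 probes was 9 bases over 28 pairs, and none of 55673 other probes on the array held a run of 20 bases of any of them. In the order of the RefSeq gene table, no protein-coding gene lies between Clec4n and Clec4d or between Clec4d and Clec4e. Clec4a3 and Clec4a2 are separated by Clec4a4 and Clec4b1, and Clec4a2 and Clec4n by Clec4b2. Clec12a and Clec7a stand further along the chromosome with Clec12b, Clec1b, Clec9a and Clec1a between them, and Clec5a is far from the others, with 628 protein-coding genes before Clec4a3.

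Of the 8 receptors only Clec4e passed the test, higher in the invading macrophages at an adjusted p of 0.0494, and it did so narrowly. It passed in none of the 8 fits that leave out 1 array (adjusted p 0.0509 to 0.118) and missed the threshold with the animal as a block (0.0668). Testing required that at least 4 of the 8 arrays showed a signal well above background. The probes of 6 receptors met this, and those of Clec4n and Clec4a2 did not. Thus 1 of 6 tested receptors was called higher, against 2.34% of all 29352 tested probes, and 0 of 6 were called lower, against 4.11%. With so few tested receptors these shares do not set them apart from other genes, and the test here is limma's, two-sided, with Benjamini-Hochberg adjustment over all tested probes and a threshold of 0.05.

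The arrays bear on these results in several ways. Signals are log2 values relative to each array's 75th percentile, so a positive value is a bright probe, and values of different probes are not set against each other. Between 45.6% and 57.0% of gene probes were well above background per array, and none was saturated. Macrophage replicate 2, from animal B, stood apart, with correlations of 0.840 to 0.872 with the other macrophage arrays, which reached 0.931 to 0.952 among themselves. On that array the median of 9 endothelial markers was 5.46, all 9 above background, against -1.34 to 1.58 on the other macrophage arrays and -4.64 to -3.68 on the microglia arrays. The median of 12 neutrophil markers was 3.77 there, against 0.25 to 1.83 and 0.02 to 1.22. Elane and Mpo were above background on no array, while S100a8, S100a9, Ly6g, Cxcr2, Csf3r, Retnlg and Mmp8 were on every array. Ly6g, Retnlg and Mmp8 were higher in the macrophages of every animal, Csf3r was lower in every animal, and the other detected markers went both ways. The median of 11 microglia markers was 6.53 to 6.96 on the microglia arrays and 3.67 to 5.39 on the macrophage arrays, where 9 to 11 of them were still above background. Monocyte markers (10 measured) had medians of 2.71 to 3.26 in macrophages and 0.07 to 1.37 in microglia, the direction that the sort labels give. Dendritic cell markers (7) had medians of -1.67 to 0.50 in macrophages and -3.49 to -1.39 in microglia, lymphocyte markers (9) -4.75 to -2.85 and -5.27 to -4.23, and neuron and glia markers (9) -2.75 to -1.32 and -3.41 to -2.36. In sorted samples of this kind, fewer cells of a type and less RNA per cell cannot be told apart. The part of macrophage replicate 2 and of other cell types in the results was not tested, and values without that array are given where it matters.

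Clec4e encodes Mincle, an Fcer1g-coupled receptor for mycobacterial glycolipid and for SAP130, a nuclear protein that dead cells release. Its signal in microglia was -1.83, -3.51, -1.25 and -1.42 in animals A to D. In macrophages it was -0.60, 0.01, 0.60 and 0.44 in the same order. All 4 macrophage arrays were above all 4 microglia arrays, as was the case for 7.3% of tested probes. The means were -2.0 ± 1.04 (SD, n = 4) in microglia and 0.11 ± 0.54 (SD, n = 4) in macrophages, a difference of 2.11 (SE 0.52, 95% interval 0.93 to 3.30) or 4.33-fold. Within animals the macrophages were higher by 1.23, 3.52, 1.84 and 1.86, and the widest gap, in animal B, came with the lowest microglia value. By p-value Clec4e ranked 1868 among the 29352 tested probes. With the animal as a block the estimate was the same, and 1.2% of tested probes were then called higher.

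Leaving out either array of animal B kept the direction of Clec4e and not its call. Without microglia replicate 2 the difference was 1.61 (adjusted p = 0.0605), and without macrophage replicate 2 it was 2.15 (adjusted p = 0.0509). Within slide 1 (slides are read from the file headers), which holds microglia replicates 1 and 2 and macrophage replicate 1, the difference was 2.07 (adjusted p = 0.407). Within slide 2, which holds the other 5 arrays, it was 1.68 (adjusted p = 0.160). The direction held in every one of these fits, while the call did not.

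**Figure D1:**
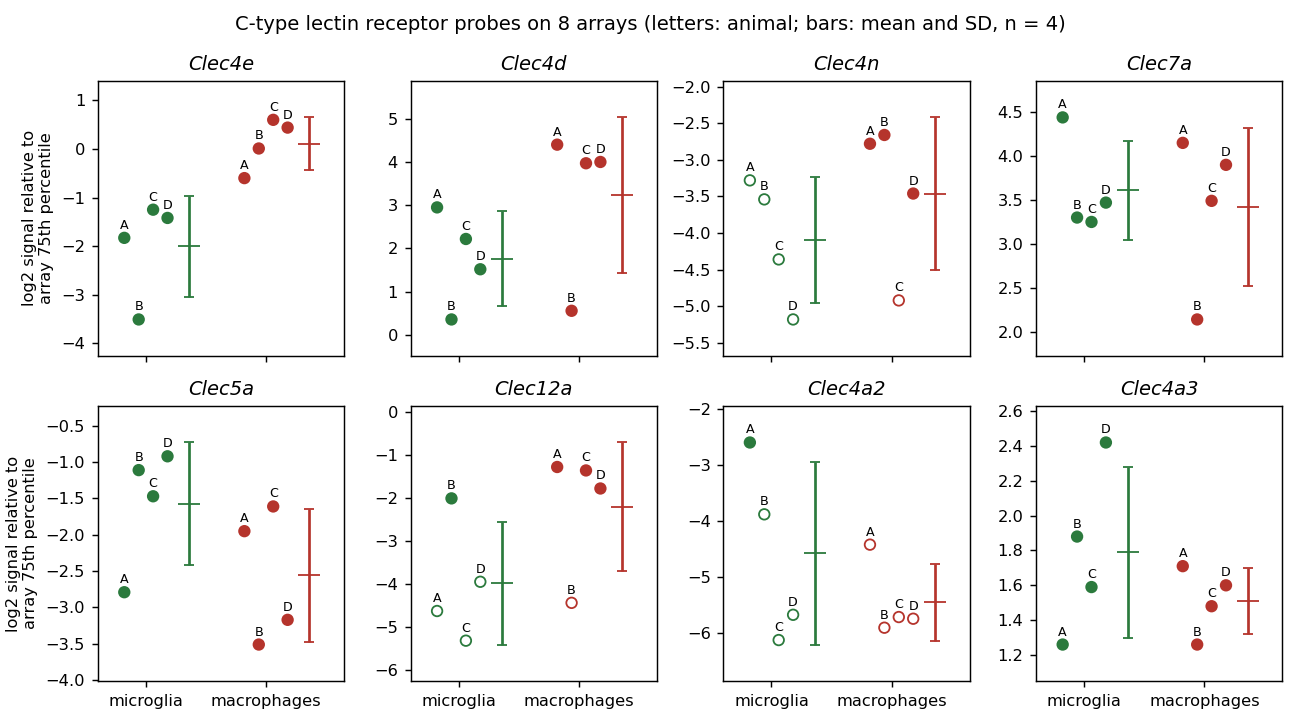
Signal of each receptor probe (y axis, log2 above or below the 75th percentile of its array) on the 4 microglia arrays (green) and 4 macrophage arrays (red). Letters name the animal, open circles were not well above background, and bars give the mean and SD. Clec4e is the receptor whose groups do not overlap, and macrophages of animal B are low for Clec4d, Clec7a and Clec12a.

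Clec4d encodes MCL, which binds the same mycobacterial glycolipid and forms a complex with Mincle. Its signal in microglia was 2.95, 0.36, 2.22 and 1.52 in animals A to D. In macrophages it was 4.40, 0.56, 3.97 and 4.0. The macrophages of A, C and D exceeded every microglia array, and those of B lay near the bottom of the microglia range, so the groups overlapped. The means were 1.76 ± 1.10 and 3.23 ± 1.80 (SD, n = 4 each), and the difference of 1.47 (SE 0.90, 95% interval -0.58 to 3.52) did not pass the test (adjusted p = 0.362). Each of the 4 animals had the higher value in its macrophages, by 1.45, 0.20, 1.76 and 2.48.

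Without macrophage replicate 2 the difference for Clec4d was 2.36 and passed (adjusted p = 0.0345), in a fit that called 7.14% of tested probes higher. That was the one call among the 8 fits that leave out an array, whose differences ran from 1.0 to 2.36 and whose adjusted p reached 0.610. With the animal as a block and all arrays kept, the adjusted p was 0.130. Leaving out both arrays of animal B and keeping the block, an alternative chosen after the values were seen, gave 1.90 (adjusted p = 0.0660).

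Clec4n encodes Dectin-2, an Fcer1g-coupled receptor for fungal mannans. Its probe was well above background on 0 of 4 microglia arrays, where the signal was -3.28, -3.54, -4.36 and -5.18 in animals A to D. It was above background on 3 of 4 macrophage arrays, with signals of -2.78, -2.66, -4.92 and -3.46, of which that of animal C was not. The groups overlapped, and the filter kept the probe out of the test. With no filter its difference was 0.63 (SE 0.60, adjusted p = 0.738). With microglia signals under the array floor, the dimmest signal that still counted as detected, raised to it, the macrophage mean was 1.13-fold higher. This is no lower limit, since that mean includes the undetected signal of animal C, and no direction is drawn from it.

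Clec7a encodes Dectin-1, the receptor for fungal beta-glucan, which signals through its own tail. The signal in microglia was 4.44, 3.30, 3.25 and 3.47 in animals A to D, and in macrophages 4.15, 2.14, 3.49 and 3.90. Both groups spanned the same range, apart from the low macrophage value of animal B. The difference was -0.20 (SE 0.48, 95% interval -1.29 to 0.90, adjusted p = 0.840), with 2 animals higher and 2 lower in macrophages. An interval of this width leaves room for a change of more than 1 log2 unit downward, and without macrophage replicate 2 the sign turned, to 0.23.

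Clec5a encodes MDL-1, a receptor that signals through Tyrobp and Hcst. Microglia gave -2.79, -1.11, -1.47 and -0.92 in animals A to D. Macrophages gave -1.95, -3.51, -1.61 and -3.17. The macrophages of B and D were the lowest of all 8 arrays, while in animal A the macrophages were the higher sample by 0.84. The difference was -0.98 (SE 0.55, 95% interval -2.25 to 0.28, adjusted p = 0.322).

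Clec12a encodes MICL, an inhibitory receptor that senses uric acid crystals and dead cells. The signal was well above background on 1 of 4 microglia arrays, that of animal B at -2.01, while A, C and D gave -4.63, -5.32 and -3.95. In macrophages it was above background on 3 of 4 arrays, with -1.28, -1.36 and -1.78 in A, C and D, and at -4.44 in B it was not. Animal B thus ran opposite to the others. In every animal 1 of the 2 samples was undetected, so the gap within an animal has only a lower limit, with the undetected signal raised to its array floor. On the log2 scale the macrophages of A, C and D were higher by at least 2.17, 2.75 and 1.83, and in B the difference was -2.27 or below. The difference over all arrays was 1.77 (SE 0.88, 95% interval -0.25 to 3.78, adjusted p = 0.267), and 2.11-fold when microglia signals under the array floor were raised to it. Without macrophage replicate 2 the adjusted p was 0.0584, and with the same floor the macrophages were 3.54-fold higher. Without both arrays of animal B and with the animal as a block, chosen after the values were seen, the adjusted p was 0.0480, in a fit that called 0.838% of tested probes higher. None of the 3 microglia arrays left then detected the probe, so the size is only a bound, at least 4.76-fold. That p comes from a limma fit on the undetected microglia signals as measured. The fit also leaves out the animal that ran the other way, so no call is drawn from it.

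Clec4a2 encodes DCIR, an inhibitory receptor with a phosphatase-recruiting motif. Its probe was above background on 1 of 4 microglia arrays, that of animal A at -2.60, and on 0 of 4 macrophage arrays. The other microglia signals were -3.88, -6.12 and -5.67, and the macrophage signals -4.42, -5.90, -5.71 and -5.74. All but 1 of these 8 values lie below detection, so the probe did not enter the test, and no bound above 1-fold could be set. With no filter on dim probes its difference was -0.88 (SE 0.76, adjusted p = 0.707).

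Clec4a3 is a relative of Clec4a2 from the same cluster. Its signal was the least variable of the 8, at 1.26, 1.88, 1.59 and 2.42 in microglia of animals A to D and 1.71, 1.26, 1.48 and 1.60 in macrophages. The macrophage values lay inside the microglia range. The difference was -0.27 (SE 0.29, 95% interval -0.93 to 0.39, adjusted p = 0.608), the narrowest interval among the 6 tested receptors.

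**Figure D2:**
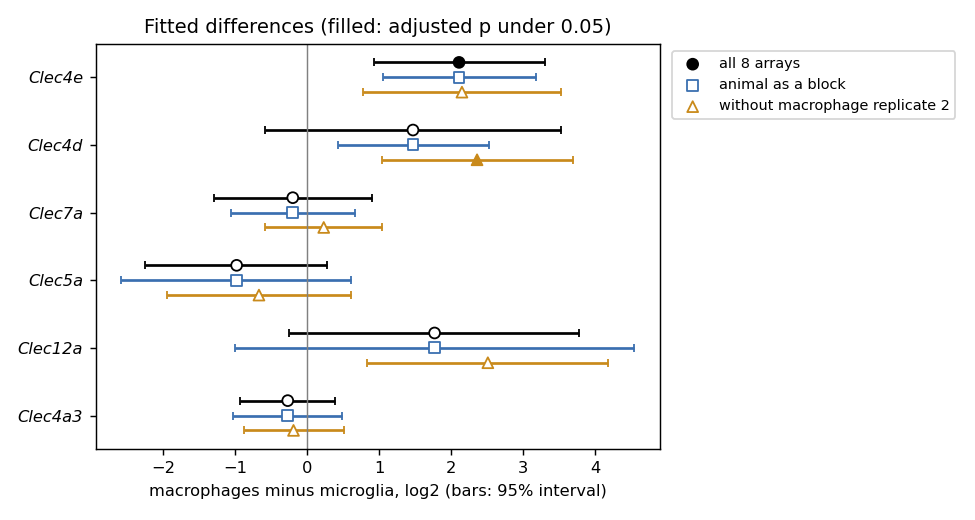
Fitted difference, macrophages minus microglia (x axis, log2), with 95% intervals for the 6 tested receptors, over all 8 arrays, with the animal as a block and without macrophage replicate 2. Filled symbols passed an adjusted p of 0.05: Clec4e over all arrays (2.11) and Clec4d without macrophage replicate 2 (2.36).

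The direction within animals can be read for the 5 receptors detected on every array. Clec4e and Clec4d were higher in the macrophages of 4 of 4 animals. Clec7a was higher in 2 of 4, and Clec5a and Clec4a3 in 1 of 4. For Clec12a, Clec4n and Clec4a2 at least 1 sample of each animal was below background, and for Clec4a2 both samples of B, C and D were, so no such count is given. With 4 animals an exact sign-flip test cannot go below 0.125. The share of all tested probes higher in 4 of 4 animals was not counted either, so these counts are only a description.

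**Figure D3:**
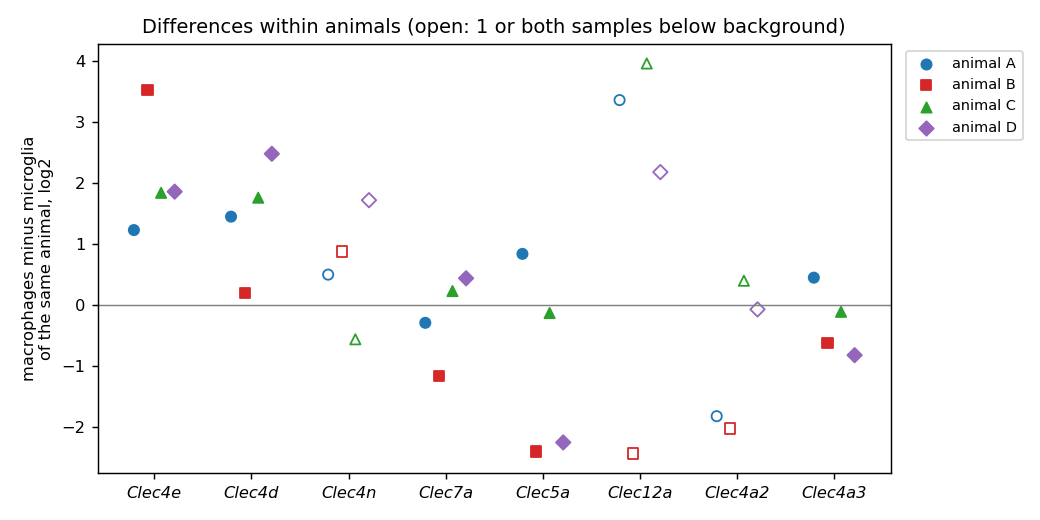
Difference within each animal, macrophages minus microglia (y axis, log2), for the 8 receptors, with 1 symbol per animal. Open symbols have 1 or both samples below background, so their size is not measured. Animal B (red squares) holds the largest difference for Clec4e (3.52) and the smallest for Clec4d (0.20).

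The ratio of a pair of receptors within an array does not depend on the scaling between arrays. Of 15 pairs among the 6 tested receptors, 2 had an exact permutation p of 0.0286, the smallest that 4 against 4 samples allow. The log2 ratio of Clec5a to Clec4e was 0.43 ± 1.44 in microglia and -2.67 ± 1.09 in macrophages (SD, n = 4 each), a difference of -3.10. That of Clec4a3 to Clec4e went from 3.79 ± 1.15 to 1.40 ± 0.63, a difference of -2.39. Both ratios were lower in the macrophages of all 4 animals, and both contain Clec4e. Neither passed after adjustment over the 15 pairs (smallest adjusted p = 0.171). The adjustment could be passed only if many of the 15 pairs reached the smallest p, so no conclusion is drawn from this miss. The ratio of Clec4d to Clec4e, the pair that forms a complex, differed by -0.64 (exact permutation p = 0.657), lying higher in the macrophages of 2 animals and lower in 2.

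The genes whose centred profile over the 8 arrays came closest to a receptor's were taken from 13121 probes with a gene symbol that were above background on every array. For Clec4e these were S100a4, a calcium-binding protein of the monocyte marker list, and Oip5, with root mean square differences of 0.36 and 0.39 log2 units. For Clec4d they were Apoc2 (0.21), an apolipoprotein, and Pla2g7 (0.23), a secreted phospholipase. For Clec12a they were Dennd2d (0.64) and AI504432 (0.77). Its own probe was below background on 4 of the 8 arrays, which the candidates could not be. Clec7a lay nearest to Anapc15 (0.15) and Stx6 (0.18), Clec5a to Dpy19l4 (0.31) and Zgpat (0.36), and Clec4a3 to Rbm26 (0.14) and Gstcd (0.15). A receptor with a flat profile finds near matches among many flat genes, so these distances describe the 8 arrays only.

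The adaptors and kinases that the receptors signal through were measured on the same arrays. Of 26 tested signalling genes (27 measured), 0 passed higher and 0 lower by limma, with a median difference of -0.15. An unadjusted p under 0.05 was reached by 6 of them (23.1%), the same share as among all 19739 tested genes (23.1%). Over all tested genes 2.28% passed higher and 3.94% lower, and the median was 0.02. Fcer1g, the adaptor chain of Clec4e, Clec4d and Clec4n, had means of 8.01 ± 0.24 in microglia and 7.90 ± 0.75 in macrophages (SD, n = 4 each, adjusted p = 0.887). Tyrobp, the adaptor of Clec5a, had 7.94 ± 0.20 and 7.83 ± 0.75 (adjusted p = 0.887). Syk, the kinase that both adaptors recruit, differed by -0.33 (adjusted p = 0.729), and the phosphatase Ptpn6 by 0.00 (adjusted p = 0.999). Macrophage replicate 2 was the lowest macrophage array for each of these genes. Without it the differences of Fcer1g, Tyrobp, Syk and Ptpn6 were 0.24, 0.23, 0.17 and 0.34, and none passed (limma adjusted p 0.365 to 0.726). Card9, the scaffold downstream of Syk, was at 5.12 ± 0.10 in microglia and 3.95 ± 0.67 in macrophages, lower in all 4 animals by a mean of 1.18, and missed the threshold (adjusted p = 0.0801). It passed in 4 of 23 alternatives: without macrophage replicate 2 (0.0395), with scaling by a percentile of the always-detected probes (0.0254), with the deposited values (0.0207) and with normexp (0.00604). Over all 23 the adjusted p ran up to 0.496, and it was 0.139 with the animal as a block.

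Among 31 other C-type lectins, 16 were tested, 1 passed higher and 3 lower, and the median difference was 0.04. Over all tested genes 2.28% passed higher and 3.94% lower. An unadjusted limma p under 0.05 was reached by 5 of the 16 (31.2%), against 23.1% of all tested genes, and the list was not tested as a set. Clec2i, a ligand of natural killer cell receptors encoded in the same gene complex, rose from 1.21 ± 0.61 to 3.49 ± 0.82 (SD, n = 4 each), a difference of 2.28 or 4.84-fold (adjusted p = 0.0239), higher in 4 of 4 animals. It missed the threshold in 6 of the 8 fits that leave out 1 array (adjusted p 0.00441 to 0.0752 over the 8), passing without macrophage replicate 2 and without microglia replicate 3. Cd209f and Cd209g, relatives of the receptor DC-SIGN, were above background on all 4 microglia arrays and on 0 of 4 macrophage arrays. Their macrophage signals were at least 10.4-fold lower (adjusted p = 0.00188) and at least 5.44-fold lower (adjusted p = 0.000507). Both met the filter through the microglia arrays alone, and so would Mrc2, described next. The adjusted p values come from limma fits on the macrophage signals as measured, undetected ones included. Only the bounds describe the size of these differences. Mrc2, the collagen receptor Endo180, was at 2.11 ± 0.27 in microglia, was above background on 1 of 4 macrophage arrays and was at least 30.4-fold lower there (adjusted p = 0.00783). The macrophage array that detected it was replicate 2, at -0.70, and without that array none did and the bound was at least 49.5-fold. One more Mrc2 probe, also detected on 1 of 4 macrophage arrays, was at least 38.0-fold lower (adjusted p = 0.00042), and the remaining one was too dim for the filter. The border macrophage marker list, which marks macrophages of the brain's surfaces, had medians of 2.05 to 3.35 on microglia arrays and 1.31 to 3.17 on macrophage arrays. On every array that median was the value of Mrc1, itself a C-type lectin. The other markers did not move together. Cd163 was at 0.33 to 1.22 in microglia and -5.99 to -2.73 in macrophages. Siglec1 was at 3.70 to 4.95 in microglia and at 6.42, 3.51, 5.89 and 5.86 in macrophages of animals A to D. The log2 of the list's summed signal was 5.66 to 6.33 in microglia and 7.14, 4.51, 6.60 and 6.76 in macrophages. The part of these cells in the lower lectins was not tested.

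Clec4b1, from the same cluster as Clec4a2, had a difference of 1.23 and missed the threshold (adjusted p = 0.0740). It was higher in the macrophages of 4 of 4 animals, while Clec4a3, of the same cluster, was higher in 1 of 4. It is named here after its value was seen.

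Of 17 genes known to respond to Syk-Card9 coupled lectins, 11 were tested, 0 passed higher and 2 lower, and the median difference was -1.24. Over all tested genes 2.28% passed higher and 3.94% lower, and the median was 0.02. An unadjusted limma p under 0.05 was reached by 6 of the 11 (54.5%), against 23.1% of all tested genes. The list was not tested as a set. Ccl3, a chemokine, fell from 3.91 ± 0.48 to 1.83 ± 0.81 (SD, n = 4 each), a difference of -2.08 (adjusted p = 0.0260) that missed the threshold with the animal as a block (0.0624) and in 6 of the 8 fits that leave out 1 array (0.0148 to 0.0722 over the 8). Egr1, an immediate early transcription factor, fell from 3.51 ± 0.25 to 1.44 ± 0.51, a difference of -2.07 (adjusted p = 0.00556, and 0.0194 with the block). Both were lower in the macrophages of all 4 animals. Ccl4, Nlrp3, Tnf and Egr2 were also lower in all 4 animals, by limma differences of -2.0, -1.24, -1.82 and -1.34. They missed the threshold (adjusted p = 0.0613, 0.0603, 0.130 and 0.141). The other tested genes had positive differences and did not pass. Il1b, an inflammatory cytokine, differed by 0.51 (adjusted p = 0.387), and Ptgs2, cyclooxygenase 2, by 0.72 (adjusted p = 0.234). Cxcl1, Cxcl2 and Egr3 differed by 1.59, 0.06 and 0.17 (adjusted p = 0.310, 0.951 and 0.926). The median of this list rests on few genes: under a looser rule for detection, used first and then replaced, 12 of its genes were tested and the median was -0.59.

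**Figure D4:**
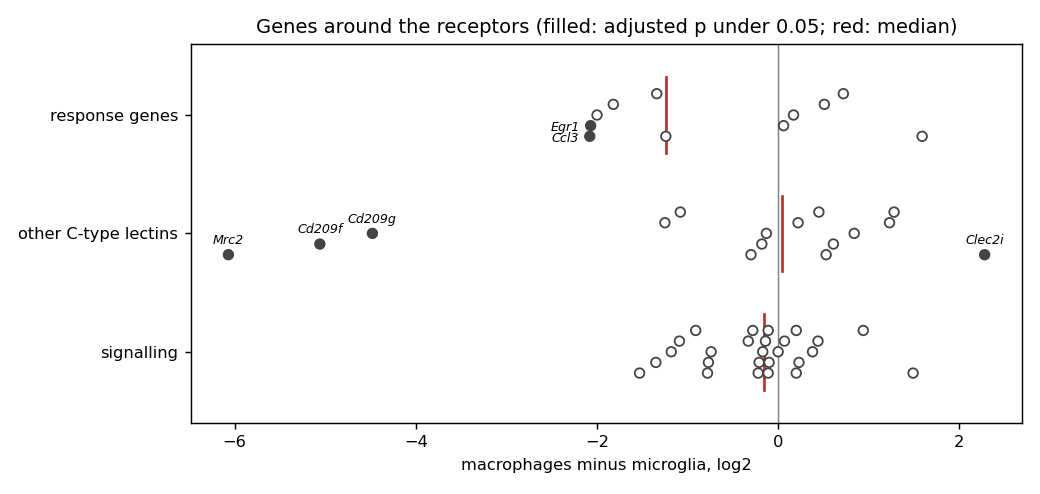
Difference, macrophages minus microglia (x axis, log2), of every tested gene in the signalling, other C-type lectin and response lists. Filled points passed an adjusted p of 0.05 and red lines are list medians (-0.15, 0.04 and -1.24). Points far to the left include Mrc2, Cd209f and Cd209g, whose macrophage signals are under the detection floor, except that of Mrc2 on replicate 2 (-0.70, detected).

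Promoter sequences from RefSeq (GRCm38.p6) were available for 7 of the 8 receptors. The 250 bases before the start are shown for Clec4e and Clec4d, which were both higher in the macrophages of all 4 animals. Capitals mark matches, on either strand, to an ETS-type motif (GAGGAA, bound by PU.1, a factor of all myeloid cells) and a C/EBP-type motif (TTGCNNAA).
Clec4e (chr6:123289872-123290121, minus strand): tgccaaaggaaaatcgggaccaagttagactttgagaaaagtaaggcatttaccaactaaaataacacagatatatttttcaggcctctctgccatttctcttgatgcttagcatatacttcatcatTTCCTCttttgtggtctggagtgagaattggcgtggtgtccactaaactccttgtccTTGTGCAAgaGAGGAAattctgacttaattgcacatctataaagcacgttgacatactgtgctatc
Clec4d (chr6:123261857-123262106, plus strand): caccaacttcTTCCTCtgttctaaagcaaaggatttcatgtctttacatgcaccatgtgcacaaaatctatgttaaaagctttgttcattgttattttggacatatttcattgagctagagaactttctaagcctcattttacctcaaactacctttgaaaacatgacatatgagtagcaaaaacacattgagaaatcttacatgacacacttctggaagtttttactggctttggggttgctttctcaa
In the Clec4e promoter the ETS-type matches begin 56 and 123 bases before the start and the C/EBP-type match begins at 66, next to the first. The Clec4d promoter has a single ETS-type match, 240 bases before the start. The table holds 9 promoters of the 7 receptors, since Clec4a3 and Clec7a have 2 starts each. GAGGAA occurred in 7 of the 9 and in 23.3% of 32851 promoters of the same length, and TTGCNNAA in 2 of 9, those of Clec4e and Clec12a, and in 9.56%. The 2 promoters of Clec7a overlap and share their match. An AP-1-type motif (TGANTCA) was in that of Clec12a alone and in 6.75% of all, and the NF-kB consensus was in 0 of 9 and in 7.25%. The motifs and the pair of promoters shown were chosen after the receptors' values were seen, and a match is only a description of these letters.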

How the data were processed

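Column-extracted RNA was enriched for mRNA on magnetic beads, per the labels' protocols, and the cDNA was amplified by global PCR and labelled with Cy3, which can change the proportions of transcripts. Per the file headers, Agilent Feature Extraction 10.7.3.1 read the arrays. The authors deposited, for each array, the processed signal, which is a background-subtracted intensity, with outlier and background flags. The authors also deposited a table of log2 values (column medians 4.604 to 4.606), whose normalization is not given in the sources used here.

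After flagged spots were dropped, log2 intensities were averaged per probe and set relative to the 75th percentile of their array. A probe counted as well above background on an array if every unflagged spot of it was, and it was tested if so on at least 4 arrays (29352 of 55681). This detection rule was the third used, settled after the receptors' fits had been seen, because it came closer to the probe counts of earlier work on these data. First any spot, flagged ones included, counted (29398 probes tested), then any unflagged spot (29372). No receptor's call differed between the 3 rules, but bounds, folds that use the array floor and 1 list median did, as given below.

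Differences are macrophages minus microglia, fitted in limma 3.58.1 (lmFit, then eBayes; R 4.3.3) without a block, two-sided, with Benjamini-Hochberg adjustment over all tested probes. The tested probe of highest mean stood for a gene. Tables and figures were made with Python 3.11.15, pandas 2.3.3, numpy 2.4.6, scipy 1.17.1 and matplotlib 3.10.9. On simulated data with 29352 probes, 70 of 100 probes shifted by 3 log2 units and 0 of 100 shifted by 1 were recovered. Only these probes were shifted, whereas in the data 688 probes were called higher and 1206 lower. The adjustment is stricter where fewer probes differ, so these rates do not give the power of the fit to the data. The labels pair the replicates by animal, while the study's design text compares the groups and states no pairing. The main fit therefore had no block and ignores the pairing, and the fit with the animal as a block is given beside it for several results. The deviations from group means correlated by 0.0419, 0.0982, 0.0694 and -0.0187 in animals A to D. The number of arrays limits the precision.

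The receptors and lists were chosen with earlier results of these data known. The rule named all 8 receptors, the 3 called genes of largest difference per list and direction, Fcer1g, Tyrobp, Syk, Card9 and Ptpn6, and 2 nearest profiles per tested receptor. Other genes named beyond it were chosen after their values were seen. Alternatives covered scaling, normexp correction (offset 50), the deposited log2 values, filters, outlier flags, detection, animal, slide and left-out arrays.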

Additional observations from a re-analysis of the deposited data

Results flagged for a closer look

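Of 16 groups of 4 values (8 receptors in 2 cell types), 3 held a value whose gap to the nearest other value was large against the group's range by Dixon's criterion, which chance alone meets in about 1 in 20 groups. In macrophages, Clec4d was 0.56 in replicate 2, from animal B, far below the other 3. Clec12a was -4.44 on the same array, below background and far below the other 3. Clec4a2 was -4.42 in macrophage replicate 1, above the other 3 and below background like them.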

How the results depend on the processing

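Clec4e was higher in macrophages under all 23 alternatives and lost its call in 15 of them. Of the fits on all arrays, it lost the call with the animal as a replicate block (adjusted p = 0.0668), the slide as a block (0.0503), no filter (0.0872) and the percentile over probes detected on all arrays (0.0556), each leaving 0 called receptors. It kept it with median centring (0.0340), normexp (0.0133, difference 1.40), the deposited log2 values (0.0458) and the filter on all 8 arrays (0.0321). Within slides, 0 receptors were called. Leaving out 1 array gave 0 or 1 called receptor, that 1 being Clec4d. Signs turned for Clec7a with median centring (0.01), within slide 1 (0.28), without animal B (0.13) and on leaving out 1 array (-0.44 to 0.23), and within slide 1 for Clec4a3 (0.14) and Clec5a (0). Median centring moved the median difference of all probes to 0.20 and the share of calls that were higher from 36.3% to 53.2%, and the other percentile moved them to -0.16 and 25.4%. Fewer probes passed with the animal as a block, 352 higher and 735 lower against 688 and 1206.

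For the lists, signalling genes lower numbered 2 with the other percentile, the deposited values or normexp, 1 with the slide as a block or the filter on all 8 arrays, and 0 to 3 without 1 array. Other C-type lectins higher numbered 2 with normexp, 0 within each slide and 0 to 2 without 1 array. Those lower numbered 1 within each slide and 0 with the filter on all 8 arrays. That filter leaves out Cd209f, Cd209g and Mrc2, which some or all macrophage arrays did not detect, so it could not call them. Response genes lower numbered 4 with the other percentile, the deposited values, normexp or the filter on all 8 arrays, 1 with the animal as a replicate block (with or without animal B), the slide as a block or median centring, 0 within slides and 1 to 4 without 1 array. No pair ratio passed in the alternatives either, which could not show one: 4 animals allow no sign-flip p below 0.125, and 3 against 4 arrays no exact p below 0.0571. Where no cause is named, it was not tested.

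Bounds, and the folds of Clec4n and Clec12a with microglia signals raised to the floor, moved with the detection rule, since it sets the array floor. From the first rule to the second and the one used, the fold of Clec4n went from 1.55 to 1.51 and 1.13, and that of Clec12a from 3.40 to 3.25 and 2.11. The bound of Cd209f went from 32.7 to 18.7 and 10.4, that of Cd209g from 22.3 to 9.79 and 5.44, and that of Mrc2 from 67.3 to 46.5 and 30.4. The adjusted p of Clec4e was 0.0495, 0.0494 and 0.0494.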
